A study of Mus musculus with 8 samples.

Results

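The 4 wild-type libraries of the series, out of 8 libraries in all, were taken by their control source label and their titles, and the 4 mutant libraries were not analysed here. Each library holds total RNA of the inner ear of untreated wild-type mice (Mus musculus) at postnatal day 14, littermates of mice heterozygous for a frameshift in Thra, the gene of thyroid hormone receptor α1. The wild-type mice carry no engineered allele and received no agent, per the labels. Strain, sex and the number of animals or ears behind a library are not given there. The design text speaks of the whole inner ear, and only the title of the series speaks of the cochlea. In the titles replicates 1 and 4 carry 1 number each (19 and 38) and replicates 2 and 3 carry 2 (22 and 23, 31 and 33), and the labels do not say what these numbers stand for.

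The inner ear is a membranous labyrinth that turns sound and head movement into nerve signals, and it lies inside the bony otic capsule of the temporal bone. In the cochlea, hair cells sit among supporting cells under a gelatinous tectorial membrane, while the stria vascularis and the spiral ligament of the lateral wall keep the endolymph rich in potassium. The vestibular organs carry hair cells under otoconia, and bipolar neurons wrapped in myelin lead from both to the brainstem. At postnatal day 14 mice have just begun to hear, and the capsule, the marrow beside it and the nerve stump are taken with the labyrinth when the whole ear is dissected.

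Libraries of replicates 1 to 4 held 21790943, 19206844, 18930841 and 22028397 counts on gene symbols. A floor of 3 counts lay between 0.136 and 0.158 normalised counts (counts per 1e6, CPM, counts of a gene divided by the library's total and scaled to 1e6). The 6 pairs of libraries correlated at Pearson r of 0.936 to 0.948 over log2(CPM + 1) of the symbols described below, and none agreed within sampling noise (lowest chi-square per degree of freedom 20.7). Replicate 2 stood apart by its haemoglobin RNA and replicates 2 and 3 by their Y-linked RNA. Values are therefore given for each library, in the order of replicates 1 to 4. All spreads are SD over n = 4 libraries, which may in part be technical, and no p-value is given because no groups are compared.

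Of 47517 symbols in the files, 30616 had a count in at least 1 of the 4 libraries and 19698 (41.5%) reached a mean of 1 CPM, the level used throughout for a gene to be described. Of these, 14874 were protein coding, 1518 were long non-coding RNAs and 2039 were pseudogenes in the GENCODE M21 annotation of GRCm38, from which all gene coordinates are taken. A mean of 10 CPM was reached by 12555 symbols, 100 CPM by 1673 and 1000 CPM by 69. Close to the limit, 264 symbols lay between 1 and 1.1 CPM and 311 between 0.9 and 1 CPM. CPM is a share of reads and grows with transcript length, so levels of different genes are compared only in transcripts per 1e6 (TPM, counts per base of annotated exon, scaled to 1e6).

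Mitochondrial transcripts and haemoglobin messages were the most abundant. Symbols of the mitochondrial genome took 9.58, 10.7, 11.02 and 9.36% of counts (mean 10.2 ± 0.8097%), which is close in the 4 libraries. The respiratory chain subunit mt-Co1 led all symbols by share of reads at 17504, 20508, 20142 and 16649.6 CPM. It was followed by mt-Atp6, a subunit of ATP synthase, at 12236, 14216, 14329 and 12889 CPM. Per length the mitochondrial messages mt-Atp6 (33521 ± 2408 TPM), mt-Co2 (24322 ± 1353 TPM) and mt-Co1 (20591 ± 1979 TPM) stood near the α-globin gene Hba-a1 (20836 ± 12688 TPM). The 10 most abundant symbols, of which 6 are mitochondrial genes, 3 pseudogene copies of these and 1 is Hba-a1, together took 11.2 ± 1.19% of counts, the first 100 took 28.2 ± 1.26% and the first 1000 took 49.9 ± 0.805%.

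Symbols that overlap or copy one another shared reads, which limits what a single symbol shows. The unprocessed pseudogenes Gm10925 (chr1:24613974-24614651, minus strand), Gm28661 and Gm28437 on chromosome 1 held almost the counts of mitochondrial genes. Gm10925 had 259881, 267046, 265506 and 277805 counts beside 266633, 273043, 271262 and 283926 of mt-Atp6. Reads from such near-identical copies cannot be told apart, and these pseudogene values are uncertain. Sums over symbols may hold such reads more than once.

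Most symbols inside another gene's span had an outer symbol with nearly as many counts or more, on either strand and in exons or introns. Among 683 pairs in which a symbol with at least 2000 counts lies inside another, the outer symbol held at least 90% of the inner symbol's counts in 92.8% of the 2732 pairs by library. It held exactly 0 in 5.71%, and the rest lay between. The share at 0 was 11.9% and 9.77% for inner symbols in introns only, on the opposite and the same strand. It was 5.52% and 0% for those reaching an outer exon, in the same order. An outer gene with many reads of its own passes the 90% limit without sharing any. Gene clusters such as the protocadherins give many of the pairs. The plot of inner and surrounding symbols shows most points near or above the line of equal counts, and a second set at 0. Tsix, the antisense partner of Xist, had 5419, 3629, 6091 and 5662 counts and Xist 5408, 3622, 6087 and 5656. Myo3a, a myosin of hair cell bundles (chr2:22227503-22618252, plus strand), ranked among the top nuclear genes at 3198, 3681, 3548 and 3866 CPM, yet its introns hold the pseudogenes Gm13340, Gm13341 and Gm13339, at mean shares of 1659, 1322 and 376 CPM. In counts summed over the libraries Myo3a held 292716, beside 135721, 108367 and 30926 of these pseudogenes in the same order. If those reads also stand on Myo3a, they make up most of its counts. Its rank is therefore not shown to be that of the hair cell myosin. Genes whose strongest overlapping symbol holds at least 50% of their counts are named as sharing counts below, and 26.9% of the symbols at 1 CPM did so.

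**Figure D1:**
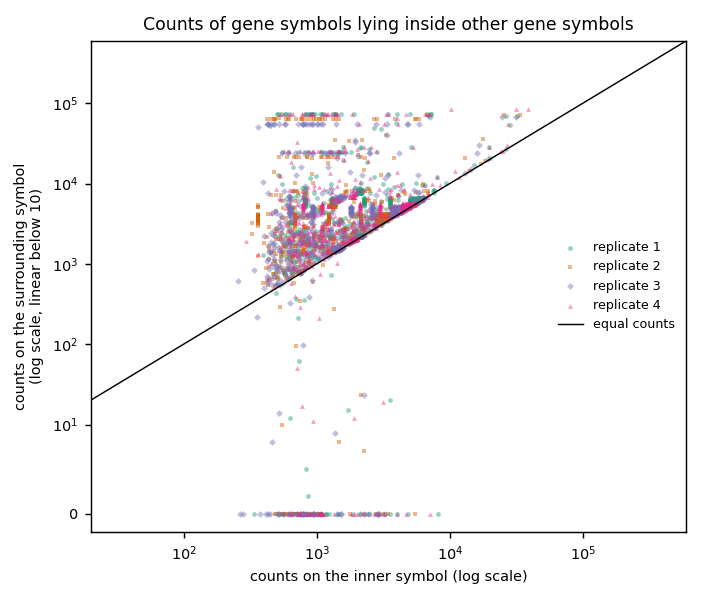
Counts on a symbol lying inside another symbol (horizontal axis, log scale) against counts on the surrounding symbol (vertical axis, log scale, linear below 10) for 683 pairs in the 4 wild-type libraries, 1 point per pair and library. In 92.8% of points the surrounding symbol held at least 90% of the inner symbol's counts, and in 5.71% it held exactly 0.

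Among nuclear protein coding genes the highest levels per length came from red cells, bone, myelin and spiral ligament. The α-globin genes Hba-a1 (chr11:32283511-32284465, plus strand) and Hba-a2 (chr11:32296489-32297298, plus strand) stood at 20836 ± 12688 and 19234 ± 11655 TPM, and the β-globin genes Hbb-bs and Hbb-bt at 11451 ± 5613 and 6648 ± 3445 TPM. Ptgds, which encodes the prostaglandin D synthase secreted by meninges and other linings of fluid spaces (chr2:25466709-25470046, minus strand), was the most abundant gene that is not a globin, at 6343 ± 960.1 TPM. In share of reads Ptgds lay at 5597, 7891, 5073 and 6159 CPM, highest in replicate 2.

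Bone matrix came next. Bglap and its neighbouring copy Bglap2, both encoding osteocalcin, stood at 3801 ± 828 and 3789 ± 802 TPM. Reads of these copies may be split between them or counted on both. Sparc, a collagen-binding bone and connective tissue glycoprotein, reached 2533 ± 905 TPM and the mineral-binding Spp1 2241 ± 606 TPM. Coch, which encodes cochlin of the spiral ligament and limbus (chr12:51593341-51605771, plus strand), reached 1440.3 ± 224 TPM with a CV of 12.5%.

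The glial calcium-binding protein S100b stood at 3413 ± 349 TPM but shares counts with Dip2a, in whose span it lies. The apolipoprotein Apod had 1766 ± 182 TPM, and the translation factor Eef1a1 1609 ± 210.1 TPM. The neutrophil protein S100a9 stood at 1147 ± 602 TPM, at a mean above those of the muscle and nerve protein S100a1 (1128 ± 142 TPM) and the peripheral myelin gene Pmp22 (1069 ± 322 TPM) by less than its SD. The plot of the highest genes shows that the globins and S100a9 spread far more between libraries than Coch, Apod or Eef1a1.

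**Figure D2:**
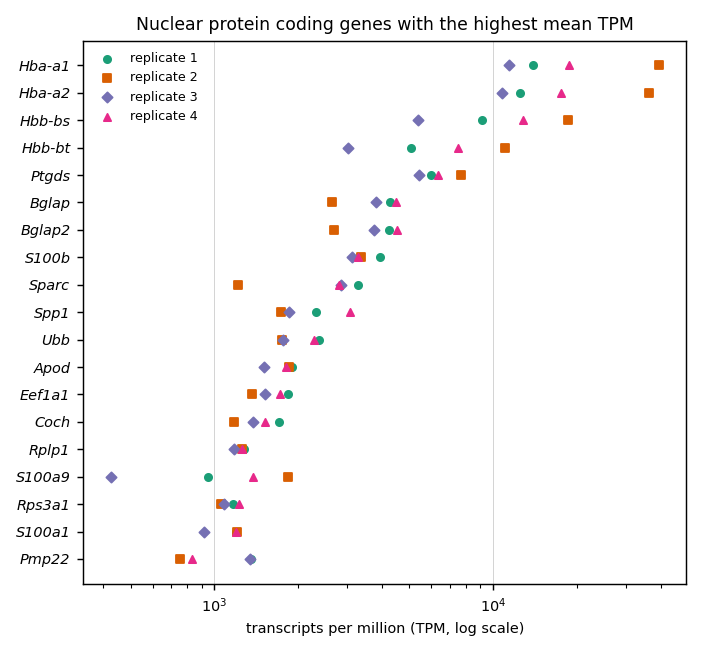
TPM (horizontal axis, log scale) in each wild-type library (4 symbols) for 19 of the 20 nuclear protein coding genes with the highest mean TPM, leaving out genes that hold an inner symbol with at least 50% of their counts. Hba-a1 lies at a mean of 20836 TPM and Coch at 1440.3 TPM, and replicate 2 is highest for the 4 globins and lowest for Bglap and Sparc.

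Haemoglobin RNA was abundant and differed between libraries. The 11 globin symbols took 1.71, 4.88, 1.29 and 2.49% of counts, highest in replicate 2 and lowest in replicate 3. Hba-a1 lay at 6404, 19930, 5279 and 8979 CPM and Hbb-bs at 3957, 8875, 2343 and 5834 CPM. Both were highest in replicate 2 and lowest in replicate 3, by 3.78 and 3.79 times. The start regions of globin and other red cell genes are shown because these genes were high and low in the same libraries. RefSeq (GRCm38.p6) gave windows of 300 bases, from 250 before to 50 after the start, for 14 of the 19 listed erythroid genes, Tfrc with 2 windows and the others with 1. Capitals mark GATAA or, for the other strand, TTATC, the core of the sites that the erythroid factor Gata1 is known to bind.
Hba-a1 (chr11:32283422-32283721, plus strand): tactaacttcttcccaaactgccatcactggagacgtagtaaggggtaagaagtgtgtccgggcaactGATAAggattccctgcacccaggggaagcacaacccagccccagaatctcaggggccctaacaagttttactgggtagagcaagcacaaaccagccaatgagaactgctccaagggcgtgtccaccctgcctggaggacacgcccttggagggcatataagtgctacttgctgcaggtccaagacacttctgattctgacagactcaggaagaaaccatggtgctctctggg
Hbb-bs (chr7:103827879-103828178, minus strand): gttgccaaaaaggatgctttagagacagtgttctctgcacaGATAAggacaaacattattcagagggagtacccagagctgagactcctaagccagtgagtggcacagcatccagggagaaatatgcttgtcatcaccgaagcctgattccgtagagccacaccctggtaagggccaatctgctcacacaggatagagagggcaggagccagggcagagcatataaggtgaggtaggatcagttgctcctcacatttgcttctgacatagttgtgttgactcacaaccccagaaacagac
Alas2 (chrX:150547167-150547466, plus strand): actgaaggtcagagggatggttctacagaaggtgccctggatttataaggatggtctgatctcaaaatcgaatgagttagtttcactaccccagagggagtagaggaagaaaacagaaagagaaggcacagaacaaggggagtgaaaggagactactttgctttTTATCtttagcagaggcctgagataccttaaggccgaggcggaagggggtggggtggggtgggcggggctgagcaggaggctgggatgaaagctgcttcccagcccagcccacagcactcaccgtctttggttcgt
Klf1 (chr8:84901732-84902031, plus strand): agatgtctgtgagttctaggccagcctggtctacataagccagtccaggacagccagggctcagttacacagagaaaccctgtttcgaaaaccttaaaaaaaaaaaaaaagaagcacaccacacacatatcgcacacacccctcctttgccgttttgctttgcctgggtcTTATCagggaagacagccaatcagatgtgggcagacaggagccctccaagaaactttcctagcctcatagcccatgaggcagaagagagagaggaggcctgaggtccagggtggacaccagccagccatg
GATAA on either strand occurred in 11 of the 15 erythroid windows (73.3%), against 25.4% of all 32851 windows in the table. CACACCC on either strand (GGGTGTG on the other), the core bound by Klf1, occurred in 4 of 15 (26.7%), against 7.95% of all windows. In the neutrophil list, whose genes were high and low in the same libraries as well, GATAA occurred in 3 of 19 windows. It occurred in 7 of 14 windows of the cartilage list (50%) and in 2 of 19 of the osteoblast and osteocyte list. The windows of Hba-a1 and Hba-a2 were identical over 297 bases at an offset of 3, so the paired α-globin genes carry the same sequence before their starts. Those of Hbb-bs and Hbb-bt shared 56.2% of 299 aligned bases. A match describes letters in a window and is not a bound site.

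In bulk RNA, fewer cells of a type and less RNA per cell cannot be told apart, and this holds for each list that follows. Lists of marker genes were used to describe which tissues the libraries hold, as the summed CPM of the members. A gene is called variable where its highest library had at least 2 times the CPM of its lowest and the exact 95% Poisson intervals of these counts, which cover counting error only, lay apart. Of all symbols at 1 CPM or more, 3090 (15.7%) were variable, the level against which each list is read. The share was higher among weak genes, 41.3% from 1 to 3 CPM and 23.5% from 3 to 10 CPM, against 7.15% from 10 to 100 CPM and 6.58% above. Leaving out a library lowers this count over all genes too. Without replicates 1 to 4 in turn, 2565, 2121, 1925 and 2382 symbols were variable, of 19806, 19587, 19653 and 19660 at 1 CPM or more. Part of a fall in a list's count without a library is therefore general. Replicates 1 to 4 were the highest library for 19.6, 22.9, 35.9 and 21.6% of all symbols at 1 CPM or more. They were the lowest library for 20.7, 28.3, 27.3 and 23.7%.

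**Figure D3:**
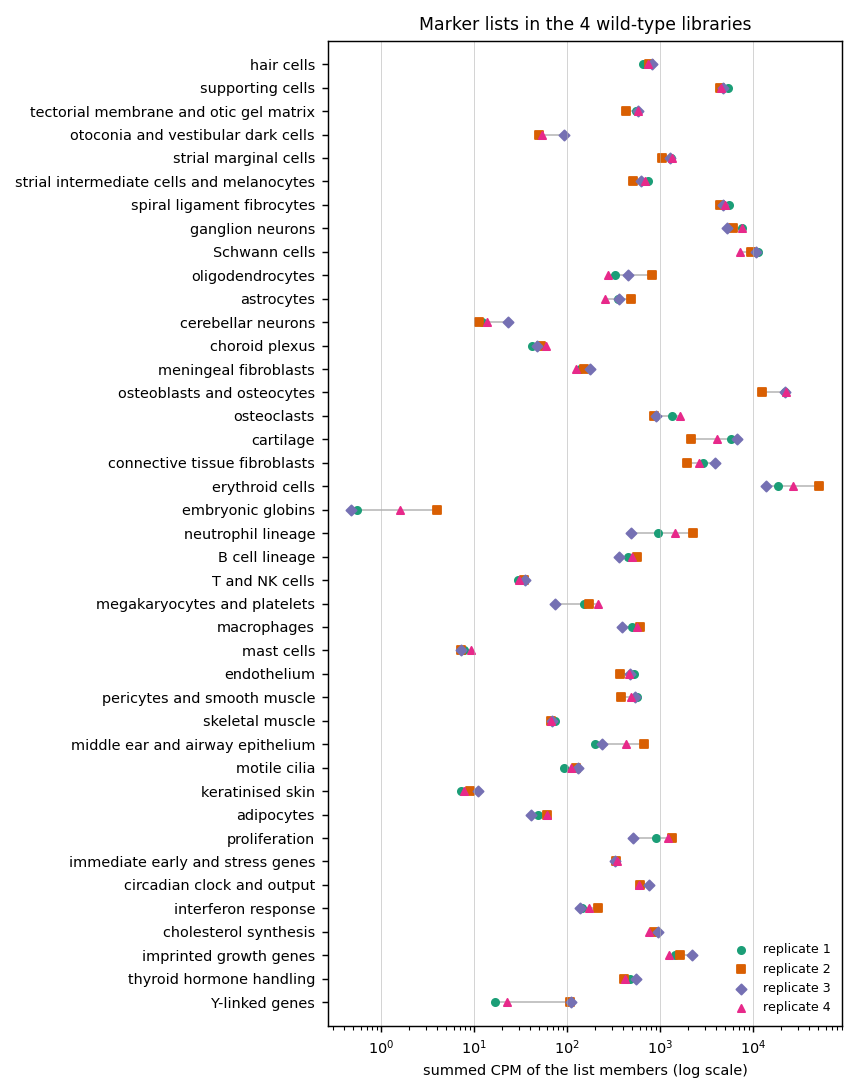
Summed CPM of the members of 41 marker lists (horizontal axis, log scale) in each of the 4 wild-type libraries (symbols), with a grey line from the lowest to the highest library. Erythroid cells range from 13628 CPM in replicate 3 to 50753 CPM in replicate 2, while immediate early and stress genes lie within 1.06-fold.

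Hair cells were represented by all 29 listed genes, and their summed level was even between libraries at 657, 756, 807 and 731 CPM. Myo7a, the myosin that tensions the transduction apparatus, lay at 86.9, 106, 86.9 and 96.4 CPM. Otof, needed for transmitter release at the inner hair cell synapse, lay at 30.4, 53.1, 55.7 and 48.8 CPM and Tmc1, the pore protein of the transduction channel, at 7.25, 12.4, 12.3 and 9.62 CPM. All 3 were detected in every library, with Otof and Tmc1 lowest in replicate 1. Slc26a5, encoding prestin, the motor of outer hair cells, stood at only 3.17, 1.77, 3.803 and 2.86 CPM. Per length the parvalbumin Ocm (oncomodulin) was the highest of the list at 106 ± 25.6 TPM, against 1.62 ± 0.527 TPM for Slc26a5 and 10.1 ± 2.36 TPM for Otof.

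Of the hair cell genes, 8 of 29 were variable (27.6%), and 17 of 29 had their highest library in replicate 3 and 21 of 29 their lowest in replicate 1. The bundle scaffold gene Ush1c lay at 24.6, 39.7, 62.1 and 31.8 CPM and Loxhd1, another gene of the bundle, at 3.99, 10.6, 15.7 and 7.72 CPM. Both were highest in replicate 3 and lowest in replicate 1. The genes called variable also included the unconventional myosin gene Myo15 and the acetylcholine receptor subunits Chrna9 and Chrna10 of the efferent synapse. Without replicate 1 the variable members were 3, and without replicate 3 they were 4. Hair cell members at 1 CPM or more that share counts were Cdh23, Strc, Chrna10, Tmie and Tomt.

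Supporting cells, which separate hair cells and recycle potassium, were represented by 17 of 18 genes at 1 CPM or more. The connexin genes Gjb2 and Gjb6, mutated in common forms of inherited deafness, lay at 619.8, 343, 547 and 522 CPM and 343, 287, 362 and 319 CPM. Sox2, the transcription factor of the sensory patches, stood at 9.45, 11.1, 11.3 and 10.3 CPM, with close values in the 4 libraries, and shares counts with Sox2ot. Epyc, a proteoglycan of the maturing organ of Corti, lay at 711, 299.8, 751 and 521 CPM, lowest in replicate 2. The list's 4 of 17 variable genes were Epyc, Emid1, the lipid-binding Fabp7 and Npy, and 2 were variable without replicate 2. Hes5, an effector of Notch signalling, was the member below 1 CPM, at 0.229, 0.0521, 0.211 and 0.136 CPM.

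Genes of the tectorial membrane and otic gel were all detected. Ceacam16, a late component of the tectorial membrane, stood at 354 ± 77.7 TPM and shares counts with Gm19345. Tecta and Tectb, encoding the α- and β-tectorins, lay at 8.08, 12.7, 14.2 and 15.5 CPM and 22.99, 13.4, 27.05 and 22.8 CPM. Otog (otogelin) lay at 50.8, 84.03, 132 and 75.4 CPM, highest in replicate 3, and was variable with Otogl and Tectb (3 of 6). Without replicate 3 the variable members were 0 and without replicate 2 1.

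Vestibular genes stood out in 1 library. Oc90, the main protein of otoconia, lay at 7.48, 2.45, 14.7 and 4.95 CPM and Otol1, an otoconial collagen-like protein, at 3.44, 4.53, 8.45 and 7.49 CPM. Nox3, the oxidase required for otoconia to form, lay at 0.734, 5.94, 13.6 and 4.403 CPM. Replicate 3 was the highest library for all 7 members at 1 CPM or more, and the summed level was 50.2, 49.9, 92.2 and 54.1 CPM. The list's highest library exceeded its lowest 1.85-fold, and 1.08-fold without replicate 3. Variable members numbered 4 of 7: Oc90, Nox3, Otol1 and Zpld1, a zona pellucida domain protein of the semicircular canal cupula.

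In the lateral wall, marginal cells of the stria vascularis secrete potassium into the endolymph. Their channel subunits Kcne1 and Kcnq1 lay at 86.1, 54.9, 76.8 and 88.98 CPM and 58.8, 66.1, 78.5 and 59.5 CPM, and Slc12a2, which brings potassium into these cells, at 386, 281, 429.8 and 378 CPM. All were detected at close levels, Kcne1 lowest in replicate 2. Bsnd, the chloride channel subunit barttin, stood at 5.64, 4.84, 6.55 and 4.72 CPM. Only 1 of 11 marginal cell genes was variable, and 0 without replicate 1 or 3 or under TMM or DESeq2 scaling.

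Intermediate cells of the stria are melanocytes. Dct, an enzyme of pigment synthesis, lay at 295, 176, 219 and 296 CPM and Kcnj10, the channel that generates the endocochlear potential, at 179.7, 140.1, 152 and 159.97 CPM. Both were lowest in replicate 2. The pigment enzyme Tyrp1 lay far lower at 2.34, 1.25, 1.06 and 0.5901 CPM and was variable, with Ednrb, the endothelin receptor of melanoblasts and glia (2 of 11 in all, and 1 without replicate 1 or 2). Per length Tyrp1 stood at 0.794 ± 0.471 TPM and Dct at 71.5 ± 18.9 TPM.

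Spiral ligament fibrocytes gave some of the strongest otic signals. Coch lay at 2893, 2193, 2346 and 2682 CPM and Otos (otospiralin) at 1368, 784, 1003 and 1143 CPM, both highest in replicate 1 and lowest in replicate 2. Otor (otoraplin), a secreted protein of cartilage and fibrocytes (chr2:143078473-143081713, plus strand), lay at 255, 65.3, 306 and 149 CPM and was 4.69 times as high in replicate 3 as in replicate 2. Slc4a11, a transporter of type II fibrocytes, and the transcription factor Pou3f4, whose loss causes X-linked deafness, stood at 107 ± 28.9 and 29.3 ± 8.503 TPM. Of the 7 genes 2 were variable, Otor among them, and 1 without replicate 1 or 2.

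Few ganglion neuron genes varied 2-fold, and their summed level was 7560.5, 6018, 5242 and 7553 CPM, a 1.44-fold range. Smaller shifts were shared, 14 of 21 genes being lowest in replicate 3, against 27.3% of all symbols. In replicate 1, 11 of 21 were highest, against 19.6% of all symbols. The neurofilament genes Nefm, Nefh and Nefl, which set axon calibre, stood at 618 ± 139, 525 ± 118 and 548 ± 120.2 TPM, with Nefm and Nefl sharing counts. Snap25, of the presynaptic release machinery, lay at 744, 722, 556 and 836 CPM and the vesicular glutamate transporter Slc17a7 at 116, 69.98, 78.2 and 91.2 CPM. Both lay within 1.66-fold. Among all symbols 15.7% were variable, among those from 10 to 100 CPM 7.15% and above 100 CPM 6.58%. The list's median gene lay at 95.3 CPM, and 1 of its 21 genes was variable (4.76%).

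The exception was Prph, encoding peripherin, the intermediate filament of type II spiral ganglion neurons and of many small sensory and autonomic neurons (chr15:99055174-99058978, plus strand). It lay at 57.4, 28.7, 8.66 and 1.73 CPM, a 33.3-fold range, against 19.5, 18.5, 10.6 and 19.3 CPM for Pou4f1, a transcription factor of sensory neurons. Genes picked after their values had been seen were high and low in the same libraries as Prph. Avil (advillin, of sensory neurons) lay at 29.3, 19.3, 7.13 and 4.403 CPM, sharing counts with Tsfm, and Cbln2 at 4.59, 2.55, 0.951 and 0.318 CPM. For both and Prph, replicate 1 was the highest library and replicate 4 the lowest. Isl1, a factor shared by many sensory neurons and by otic cells, lay at 45.6, 45.2, 52.7 and 36.7 CPM, within 1.43-fold. How many neurons of other ganglia each dissection held was not tested.

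Peripheral myelin was abundant. Prx (periaxin), a protein of myelinating Schwann cells, lay at 313, 167, 287 and 196 CPM and Ncmap, a protein of compact peripheral myelin, at 142, 89.03, 131 and 92.7 CPM. Both were highest in replicate 1 and lowest in replicate 2. The Schwann cell transcription factor Egr2, which drives myelin genes, lay at 23.2, 10.9, 27.8 and 15.1 CPM. Of 12 Schwann cell genes, 5 of 12 were variable (among them Mbp, Gldn, Egr2 and Pmp2), and 1 without replicate 2.

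Central glia were present and distributed otherwise. Mobp, a myelin protein of oligodendrocytes (chr9:120149707-120181484, plus strand), lay at 201, 613, 294 and 172 CPM, highest in replicate 2. Mog, on the outer face of central myelin, lay at 36.6, 60.9, 45.5 and 26.7 CPM. The transcription factors Olig1 and Olig2 stood at 9.33 ± 2.92 and 2.42 ± 0.944 TPM. All 9 members had their lowest library in replicate 4 and 7 of 9 their highest in replicate 2, and 7 of 9 were variable, against 2 without replicate 2 and 2 without replicate 4. Mbp, made in both peripheral and central myelin, lay at 2419, 3371, 2691 and 1497 CPM, with the same highest and lowest libraries as Mobp.

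Astrocyte genes had the same extremes. The water channel Aqp4 lay at 99.8, 122, 121 and 73.5 CPM and Gfap, which shares counts with Gm26668, at 164, 237, 153 and 103 CPM. Markers of cerebellar neurons were near the limit of description, with Cbln3 at 2.16, 1.61, 4.701 and 1.997 CPM and Gabra6 at 0, 0.781, 2.54 and 0.953 CPM. All 5 cerebellar members were variable, against 2 without replicate 3 and 3 without replicate 2, and their highest mean was 4.67 CPM. The choroid plexus gene Ttr (transthyretin), a carrier of thyroid hormone, lay at 5.69, 12.2, 7.98 and 15.98 CPM and the meningeal transporter Slc13a4 at 108, 89.3, 116 and 90.7 CPM.

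Bone of the capsule was strongly represented, with the 19 osteoblast and osteocyte genes summing to 21674, 12283, 21862 and 22475 CPM. Col1a1, encoding the main chain of type I collagen, lay at 4118, 2686, 4912 and 4402 CPM and Bglap at 1496, 1017, 1338 and 1643 CPM. Dmp1, made by osteocytes, lay at 260.2, 118, 321 and 272 CPM and Sost, encoding the osteocyte Wnt inhibitor sclerostin, at 12.1, 1.82, 13.8 and 11.3 CPM. All 4 were lowest in replicate 2, as were 16 of 19 genes of the list. Variable members numbered 9 of 19, and 0 when replicate 2 was left out. Bone-resorbing osteoclasts were marked by Ctsk (cathepsin K) at 327, 101, 238 and 392 CPM and the phosphatase Acp5 at 282, 108, 173 and 362 CPM. Both were highest in replicate 4, as were 8 of 11 osteoclast genes, and 9 of 11 were variable, 2 without replicate 2.

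Cartilage collagens showed the same low library. Col2a1, the main collagen of cartilage and also of the tectorial membrane (chr15:97975602-98004695, minus strand), lay at 2456, 628, 2719 and 1546 CPM. Col9a1, a collagen that coats these fibrils, lay at 329, 60.4, 444 and 173 CPM, a 7.34-fold range. Acan, the cartilage proteoglycan aggrecan, lay at 44.8, 24.1, 40.9 and 34.2 CPM, and Sox9, the factor that specifies cartilage and also marks otic supporting cells, at 77.6, 78.6, 77.6 and 66.9 CPM. Sox9 thus lay within 1.17-fold while Col2a1 ranged 4.33-fold. Of 15 cartilage genes at 1 CPM, 10 of 15 were variable, and 1 without replicate 2. Markers of growth plate cartilage were weak, with Col10a1 of hypertrophic cells at 2.42 ± 1.48 TPM, sharing counts with Nt5dc1, and Ihh below 1 CPM.

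Collagens as a class took 1.53, 0.771, 1.81 and 1.36% of counts, and 27 of 43 at 1 CPM or more were variable, with 35 of the 43 highest in replicate 3. Connective tissue fibroblast genes shared that highest library. Dcn (decorin) lay at 610.4, 546, 808 and 585 CPM and Lum (lumican) at 424, 218, 563 and 404 CPM, and 15 of 16 genes of the list were highest in replicate 3. Of these 16 genes 7 of 16 were variable, against 1 without replicate 2 and 3 without replicate 3.

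Red cell precursors, and not only red cells, were represented. Alas2, the first enzyme of haem synthesis in red cells, lay at 144, 317, 82.8 and 243 CPM, sharing counts with Apex2. The erythroid transcription factors Klf1 and Gata1, which are made in nucleated precursors, lay at 23.7, 46.3, 14.5 and 37.4 CPM and 15.1, 29.6, 11.4 and 19.6 CPM. Replicate 2 was the highest and replicate 3 the lowest library for Alas2, Klf1 and Gata1. In all, 17 of 18 erythroid genes were variable, Tfrc being the exception, and all 18 had their lowest library in replicate 3. Without replicate 3 the variable members were 9 and without replicate 2 12. The embryonic globin Hba-x lay at 0.367, 3.54, 0.3698 and 1.18 CPM, and Hbb-bh1 and Hbb-y stayed below 1 CPM.

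Granulocyte precursors had the same extremes as erythroid cells. Ngp, a protein of neutrophil granules (chr9:110419747-110423012, plus strand), lay at 173, 475, 91.4 and 261 CPM, and Elane, the elastase of immature neutrophils, at 13.2, 39.2, 9.24 and 23.1 CPM. S100a8, the partner of S100a9, lay at 152, 316, 63.6 and 219 CPM. Every one of the 19 neutrophil genes was variable, highest in replicate 2 and lowest in replicate 3. Variable genes that were highest in replicate 2 made up 5.99% of all symbols at 1 CPM or more. The summed level was 937, 2272, 484 and 1441 CPM, a 4.695-fold range that came to 2.98-fold without replicate 2 and 2.42-fold without replicate 3.

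B cell genes ranged less. Cd79a, of the B cell receptor, lay at 45.7, 57.6, 23.6 and 55.7 CPM, lowest in replicate 3. Genes of early precursors, Dntt, which adds bases at rearranging antibody genes, at 15.3, 6.72, 7.03 and 15.6 CPM, and the surrogate light chain gene Igll1, at 10.5, 4.74, 6.23 and 8.31 CPM, were instead lowest in replicate 2. Thus the B cell list did not follow 1 order of libraries. Of 16 members 12 of 16 were variable, and 5 without replicate 3 and 7 without replicate 2.

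Among the other marrow lists, platelet genes such as Pf4 (30.8, 31.9, 15.2 and 45.9 CPM) and Ppbp (49.1, 54.1, 17.2 and 77.9 CPM) were highest in replicate 4, with 8 of 9 variable but 0 without replicate 3. Proliferation genes lay at 889.96, 1327, 509.8 and 1201 CPM in sum, 14 of 16 variable and likewise 0 without replicate 3. Mki67, the marker of cycling cells, lay at 292, 509, 141 and 429 CPM and the topoisomerase Top2a at 98.3, 137, 59.2 and 123 CPM. All 16 proliferation genes were lowest in replicate 3, and 13 were highest in replicate 2, the extremes of the erythroid and neutrophil lists. Which cells were cycling was not tested.

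Most macrophage genes stayed within 2-fold, but their summed level was 493, 600, 386 and 561 CPM, a 1.55-fold range. Of the 12 members, 7 were highest in replicate 2, against 22.9% of all symbols. Likewise 7 were lowest in replicate 3, against 27.3% of all symbols, the extremes of the erythroid and neutrophil lists. Csf1r, the receptor for macrophage growth factor, lay at 72.7, 57.2, 63.5 and 79.9 CPM, Adgre1 at 13.9, 13.4, 11.6 and 11.9 CPM and Cx3cr1, the fractalkine receptor, at 96.97, 98.2, 99.5 and 94.2 CPM. Lyz2 was the only variable member of 12 (0 without replicate 3), at 159, 265, 77.7 and 211 CPM, and it is also made by neutrophils. T cell markers were at the limit, with Cd3e at 0.826, 1.04, 1.21 and 0.454 CPM, and the mast cell proteases Cma1, Mcpt4 and Tpsb2 were below 1 CPM.

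Vessels varied little. None of the 13 endothelial genes was variable by the 2-fold rule, against 15.7% of all symbols and 7.15% of those from 10 to 100 CPM. The median endothelial gene lay at 33.3 CPM. Smaller shifts were shared, 11 of 13 being highest in replicate 1 and 11 of 13 lowest in replicate 2. Pecam1 lay at 63.3, 50.7, 53.1 and 60.2 CPM and Cdh5, the junction protein of vessels, at 70.8, 48.00, 70.2 and 62.8 CPM. The pericyte gene Rgs5 lay at 234, 116, 212 and 169 CPM and was among 2 of 11 variable genes of its list (0 without replicate 2), whereas smooth muscle Acta2 (40.1, 44.05, 42.3 and 45.5 CPM) and Myh11 (20.4, 19.3, 18.01 and 20.9 CPM) were nearly equal in the 4 libraries.

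Tissue adjoining the ear was visible at low levels, with 1 exception. Bpifa1, a secreted defence protein of middle ear and airway lining (chr2:154142880-154149219, plus strand), lay at 155, 514, 186 and 332 CPM, and Cyp2f2, a cytochrome of secretory airway cells, at 18.1, 91.2, 18.3 and 50.3 CPM. Replicate 2 was the highest library for both and replicate 1 the lowest. Of 11 epithelial genes 8 of 11 were variable, and 7 without replicate 2. The basal cell keratin Krt5 stood at 1.998 ± 0.6099 TPM. Foxj1, the regulator of motile cilia, lay at 9.499, 6.82, 7.24 and 9.53 CPM, lowest in replicate 2. The motile cilia list went otherwise, summing to 92.2, 124, 129 and 109 CPM. Of its 12 genes at 1 CPM or more, 9 were lowest in replicate 1. Variable members numbered 6 of 12, against 2 without replicate 1 and 3 without replicate 3. Skeletal muscle genes lay at 73.8, 67.4, 68.9 and 66.5 CPM in sum, within 1.11-fold. Single muscle genes went different ways, with 8 of 18 variable, and 5 without replicate 3. Muscle Mylpf lay at 3.72, 4.11, 1.58 and 2.86 CPM. The skin keratins Krt10 and Krt1 stood at 2.81 ± 0.712 and 0.139 ± 0.0582 TPM, and Adipoq, the fat cell hormone adiponectin, at 6.67 ± 3.25 TPM.

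**Figure D4:**
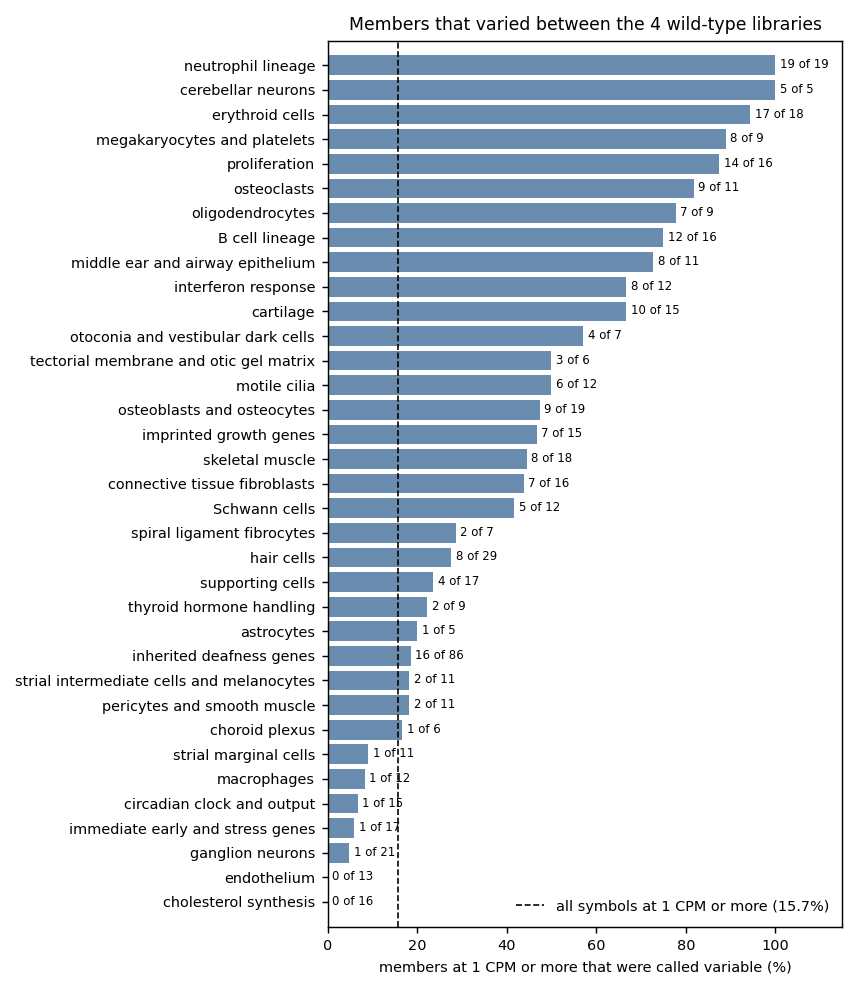
Percent of the members at 1 CPM or more that were called variable (bars, horizontal axis) for each list with at least 5 such members, with the count beside the bar. The dashed line marks the 15.7% of all symbols, with neutrophil lineage at 19 of 19 and endothelium at 0 of 13.

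Lists of cell states set the tissue lists in context. Immediate early and stress genes, which dissection can induce, were even in sum at 324, 338, 325 and 343 CPM, with Fos at 6.01, 6.46, 5.44 and 7.58 CPM and Egr1 at 23.5, 24.3, 26.3 and 23.8 CPM. Dusp1 was the 1 variable gene of 17 (0 without replicate 1 or 2, and 2 to 3 under other scalings) and shares counts with Ergic1. The 16 cholesterol synthesis genes, active where myelin is built, held no variable member. Of them 15 were lowest in replicate 4, a shift below the 2-fold rule. Clock genes held 1 of 15 variable members (0 without replicate 3 or 4), with Arntl at 20.4, 22.1, 22.7 and 18.98 CPM and Dbp, which shares counts with Sphk2, at 38.6, 35.2, 41.04 and 38.1 CPM.

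Interferon-response and imprinted growth genes varied more often. Of 12 interferon genes 8 of 12 were variable, 2 without replicate 2 and 5 without replicate 1, and 10 were highest in replicate 2. Ifit1 lay at 7.297, 14.8, 8.98 and 9.397 CPM and Isg15 at 10.2, 13.2, 5.92 and 17.2 CPM. Of 15 imprinted genes 7 of 15 were variable, 4 without replicate 3, and 12 were highest in replicate 3. Igf2, the fetal growth factor, lay at 232, 324, 527 and 268 CPM and H19, the non-coding RNA beside it, at 61.5, 27.02, 105 and 48.5 CPM. The maternally expressed RNA Meg3 lay at 226, 503, 544 and 126 CPM and Mirg, from the same cluster, at 6.06, 12.6, 14.00 and 3.13 CPM, so that both were high in replicates 2 and 3 and low in replicates 1 and 4.

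Y-linked genes separated the libraries into pairs. Eif2s3y, a translation factor subunit (chrY:1010543-1028847, plus strand), lay at 0, 28.4, 27.5 and 0.0908 CPM, and Kdm5d, a histone demethylase, at 0.413, 13.6, 16.2 and 0.772 CPM. Uty, a relative of X-linked Kdm6a, lay at 1.97, 16.1, 16.7 and 1.91 CPM and the RNA helicase gene Ddx3y at 14.1, 48.6, 50.4 and 19.8 CPM. All 4 were higher in replicates 2 and 3, the libraries with 2 numbers in the title. In replicates 1 and 4 Eif2s3y and Kdm5d were at or near 0, while Uty and Ddx3y were low but well above the floor of 3 counts. Xist, the RNA of the inactive X chromosome, lay at 248, 189, 322 and 257 CPM in all 4, so it was present beside the Y-linked RNA of replicates 2 and 3 as well as in the libraries with little of it. Meg3 and Mirg had their higher values in the same pair of libraries, and a link was not tested.

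Thra, the gene of the receptor on which the series turns, and Thrb were both expressed. Counts were per gene, so products of Thra other than α1 were not told apart. Thra (chr11:98740638-98769006, plus strand) lay at 113, 113, 104 and 97.1 CPM, a CV beyond counting of 7.03%, and shares counts with Nr1d1 on the opposite strand. Thrb, the receptor gene essential for hearing (chr14:17660261-18038090, plus strand), lay at 27.1, 31.7, 37.7 and 26.2 CPM. Per length Thra stood at 39.4 ± 3.09 TPM and Thrb at 7.06 ± 1.302 TPM. Dio2, which makes the active hormone, lay at 49.8, 43.5, 82.3 and 37.6 CPM and the transporter Slco1c1 at 116, 59.9, 134 and 90.6 CPM, and both were variable and highest in replicate 3. These were the 2 of 9 variable genes of hormone handling, against 0 without replicate 3 and 1 without replicate 2 or 4. The inactivating enzyme Dio3 was below 1 CPM at 0.505, 0.104, 0.3698 and 0.363 CPM.

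Inherited deafness genes were almost all described, 86 of 88 found in the files reaching 1 CPM and Ush1g lying below it. Of the 86, 16 of 86 were variable (18.6%), and 8 were without replicate 2 and 9 without replicate 3. The share was 15.7% among all symbols and 7.15% among those from 10 to 100 CPM, and the list's median gene lay at 31.1 CPM. Of the 16 variable genes, 13 were highest in replicate 3. The variable genes held 5 members of the cartilage list, all collagens, and 4 members of the hair cell list. Slc26a4 (pendrin), an anion exchanger of the endolymphatic sac and lateral wall, lay at 69.02, 64.7, 60.1 and 72.8 CPM, and Eya4, a developmental regulator, at 62.9, 78.9, 126 and 68.05 CPM. Slc26a4 was even, and Eya4 highest in replicate 3.

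Over all symbols at 1 CPM or more, the CV between libraries that remained after counting error was subtracted had a median of 12.8%, with a 10th percentile of 2.22% and a 90th of 37.3%. For 1646 symbols none remained. Variable symbols highest in replicates 1, 3 and 4 made up 1.61%, 4.8% and 3.29% of all symbols, beside the 5.99% of replicate 2. Of all symbols 35.9% had their highest library in replicate 3 and 21.6% in replicate 4. Processed pseudogenes went another way, 1461 of 1811 being highest in replicate 4, at 3.81, 3.51, 3.19 and 4.39% of counts. Ribosomal protein genes took 2.42, 2.31, 2.05 and 2.47%, and none of 79 was variable. Of these 79, 43 were highest in replicate 4 and 2 in replicate 3, so that highest library was not particular to the pseudogenes.

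Among genes with established symbols that were not all-or-none (below), the 20 with the largest remaining CV mixed hormones, immune genes and Y-linked genes. Growth hormone (Gh), a pituitary gene, led at 2.43, 0.521, 1.64 and 10.9 CPM, highest in replicate 4, with a CV beyond counting of 122%. Il31ra, a receptor of itch and immune signals (chr13:112519898-112594360, minus strand), lay at 16.8, 25.9, 13.4 and 73.95 CPM, the only one of the 20 besides Prph with a mean over 20 CPM. Neurod1, a proneural factor, lay at 1.06, 0.729, 5.65 and 1.27 CPM and the chemokine Cxcl5 at 0.551, 1.67, 4.81 and 0.726 CPM, both highest in replicate 3, and Neurod1 shares counts with Cerkl. The male-biased liver and kidney enzymes Cyp4a12a (0.597, 6.46, 1.32 and 2.41 CPM) and Cyp4a12b (0.551, 6.35, 1.74 and 2.77 CPM) were highest in replicate 2. Reads of these close copies may be split or counted on both. Mmp12, the macrophage elastase, lay at 0.459, 2.76, 0.211 and 1.63 CPM and Fxyd2, a sodium pump subunit, at 3.26, 10.6, 1.64 and 2.36 CPM, both highest in replicate 2 too. The oestrogen sulphotransferase Sult1e1 (0.367, 3.54, 0.687 and 2.18 CPM) and the chemokine Cxcl17 (0.321, 2.71, 0.687 and 0.363 CPM, sharing counts with 4732471J01Rik) followed the same highest library, and the eosinophil ribonuclease Ear6 lay at 1.101, 0.0521, 2.27 and 0.5901 CPM.

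**Figure D5:**
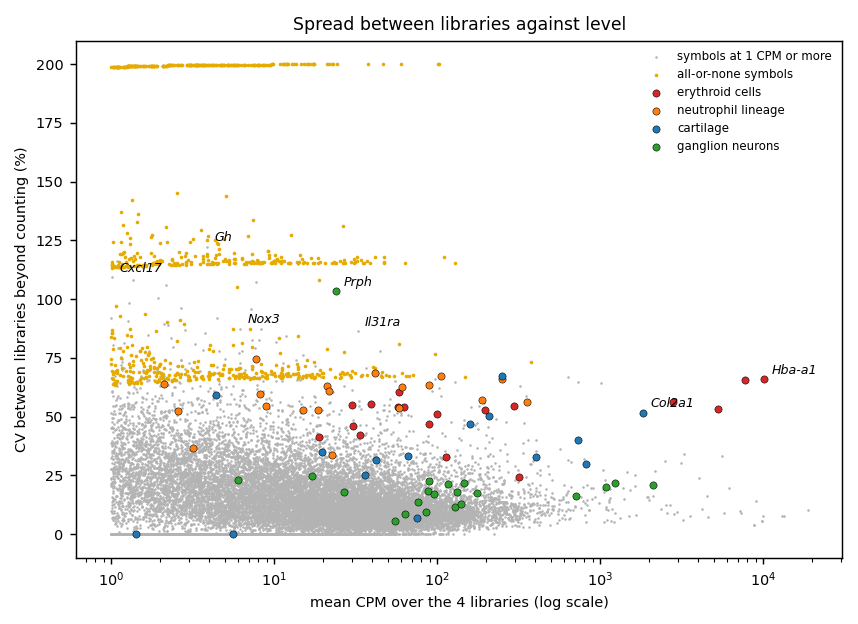
CV between the 4 wild-type libraries beyond counting error (vertical axis, %) against mean CPM (horizontal axis, log scale), 1 point per symbol at 1 CPM or more, with 4 lists in colour. All-or-none symbols form bands set by the number of libraries at 0, Prph stands at 103% above the other ganglion neuron genes, and Hba-a1 at 66.05%.

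At the other end, 10 genes at 10 CPM or more had CVs below 1%, each within counting error. Dlc1, a regulator of small GTPases, lay at 72.8, 72.99, 73.00 and 72.9 CPM (CV 0.147%) and Wwp2, a ubiquitin ligase also made by cartilage cells, at 146, 147, 147 and 147 CPM. Ep400, a chromatin remodeller, lay at 61.1, 61.2, 60.7 and 61.4 CPM and Numa1, a spindle protein, at 116, 116, 117 and 118 CPM. Cyb561, Kat5, Trim62, Tyw1, Celf2 and Bax completed the set.

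A separate set of 784 symbols (3.98%) was all-or-none, at 0 counts in 1 to 3 libraries and at least 10 in every other. Of these, 616 (78.6%) share counts with an overlapping symbol, against 26.9% of all symbols at 1 CPM, and 81.7% were not protein coding. Zeros were spread over the libraries, 408 in replicate 1, 337 in replicate 2, 379 in replicate 3 and 340 in replicate 4. Nmbr, the receptor for neuromedin B, had 0, 8163, 7847 and 14507 counts, beside 8176, 6437, 5872 and 10947 of the pseudogene Gm8355 inside it. Patl2 had 5765, 0, 4732 and 0 beside 5721, 5487, 4690 and 7148 of B2m, the light chain of class I histocompatibility molecules. Where it had counts, Patl2 stood close to B2m, while Nmbr held more than Gm8355. Of the 784 symbols, 37 lay within 10% of an overlapping symbol that had counts in every library. Gm29502, Gm26992 and Gm26668 were all-or-none as well, Gm26668 at 0, 7913, 0 and 0 counts beside 3584, 4548, 2901 and 2278 of Gfap.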

How the data were processed

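Per the labels' protocols, TRIzol and a micro column gave the inner ear RNA, and the total RNA library kit adds molecular identifiers. The submitters' processing notes name FastQC, STAR, HTSeq and mm10, with no versions. For the annotation, strand setting, counting mode and any use of identifiers, nothing is given in the sources used here. The deposited files hold raw counts of reads per gene symbol, whole numbers with no normalization, per the values themselves. The 4 wild-type libraries were used and the 4 mutant libraries were not.

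CPM used the total on gene symbols. TPM used the union of exons of GENCODE M21 (GRCm38, the assembly of mm10) for symbols with 1 gene ID, so 2.10% of counts had no TPM. Since counts inside a gene's introns or on its other strand may also stand on that gene, TPM of long or overlapping genes is approximate. The CV beyond counting is the square root of the squared CV of CPM minus the mean of 1 over the expected count, at least 0. The estimator and the rule for variable genes were tested on simulated data. Computation used Python 3.11.15, numpy 2.4.6, pandas 2.3.3, scipy 1.17.1 and matplotlib 3.10.9, with R 4.3.3, edgeR 4.0.16 and DESeq2 1.42.0 for alternative scalings.

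The members and the 42 gene lists were chosen with earlier results of these data known. Named genes were the 20 highest by CPM or TPM, the defining markers and up to 4 further strong members of each list, the 20 most and 10 least variable genes with established symbols, up to 5 all-or-none genes, Thra and Thrb, and list members called variable. Avil, Isl1, the overlap partners and other genes outside this rule were chosen once their values were known. Of the listed genes, Snorc, Ahsp, Dnai1 and Lrtomt were not analysed here, and some list members are counted but not reported by name. The labels do not say whether libraries came from separate animals, so spreads may in part be technical. Y-linked genes summed to 16.5, 107, 111 and 22.6 CPM in replicates 1 to 4. Replicates 2 and 3 were thus not repeats of the samples behind replicates 1 and 4. What the sex of the animals adds to the spreads was not tested. Alternatives were other scalings, other limits on level and fold, edgeR's dispersion, left-out libraries, transcript lengths and, added after the data had been seen, the variable members of each list under scalings, without members that share counts and without each library.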

Additional observations from a re-analysis of the deposited data

Results flagged for a closer look

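The 4 library values of 140 genes (in CPM), 42 lists and 10 classes of symbols, and the number of symbols with a count, 193 sets in all, were checked for 1 library that lies far from the other 3 (its gap to the nearest library, as a share of the whole range, above Dixon's 95% critical value). Chance alone passes this limit in about 1 of 20 sets that were not chosen by their values, and 9 sets passed it. Many sets here were chosen with their values known, so this rate is only a rough guide. It does not apply to Neurod1 and Cxcl17, named for their large CV, or to the all-or-none Gm26668.

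Replicate 3 was set apart in 4 of them. The otoconia and vestibular dark cell genes summed to 92.2 CPM there, against 49.9 to 54.1 CPM in the other 3 libraries. The clock genes summed to 749 CPM, against 588 to 612 CPM. The proneural gene Neurod1, which shares counts with Cerkl, stood at 5.65 CPM against 0.729 to 1.27 CPM, and the sensory neuron factor Pou4f1 at 10.6 CPM against 18.5 to 19.5 CPM.

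Replicate 2 was set apart in 4. Osteoblast and osteocyte genes summed to 12283 CPM there, against 21674 to 22475 CPM elsewhere, and strial marginal cell genes to 1030.3 CPM, against 1281 to 1321 CPM. The chemokine gene Cxcl17, which shares counts with 4732471J01Rik, stood at 2.71 CPM, against 0.321 to 0.687 CPM. Gm26668, an all-or-none symbol around Gfap, stood at 412 CPM there and at 0 elsewhere. Replicate 4 was set apart once, by Sox9 at 66.9 CPM, against 77.6 to 78.6 CPM, a difference of less than 2-fold.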

How the results depend on the processing

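The number of symbols at 1 CPM or more stayed within 1.5 times of its value under each scaling, with each library left out and with 1 CPM required in every library, and rose to 30616 with no limit but 1 count. Variable symbols numbered 6656 at a fold of 1.5, 1385 at a fold of 3, 888 at a mean of 10 CPM and 5264 with no limit on level, and ranged from 1925 to 2565 with 1 library left out, the lowest without replicate 3. The median CV beyond counting was 9.96 to 13.4% with 1 library left out and 24.8% as edgeR's tagwise biological CV, which shrinks genes towards a common trend. The share of the 10 most abundant symbols was 8.72% with mitochondrial symbols left out. All-or-none symbols numbered 651 to 672 with 1 library left out. For the 42 lists, the ratio of the highest to the lowest library stayed within 1.5 times under both other scalings, and moved further for 7 without replicate 2 and 5 without replicate 3. Of 38 lists with a variable member, the count moved by over 1.5 times for 20 without replicate 2, 19 without replicate 3, 8 without replicate 1 and 4 without replicate 4, and for 2, 2 and 3 under the 3 other scalings. Of the 20 most variable genes, 7 were among the 20 highest by SD of log2(CPM + 1) and 17 by edgeR's tagwise biological CV. With the longest annotated transcript in place of the union of exons, 37 of the 39 mean TPM values given stayed within 1.5 times, and Dct (108 TPM) and Thra (65.7 TPM) moved further. No paired analysis was possible because only wild-type libraries were used. Symbols near 1 CPM rest on about 20 counts a library, so smaller differences between libraries are within counting error there.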

Other observations

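Some genes outside the lists, chosen after their values had been seen, had a further pattern over the libraries. Rarres1, a membrane protein induced by retinoids, lay at 63.3, 10.5, 53.3 and 18.7 CPM in replicates 1 to 4, and Umodl1, a uromodulin-like protein, at 8.95, 1.56, 15.3 and 3.68 CPM. Gcg, which encodes proglucagon, lay at 2.89, 0.312, 3.22 and 1.27 CPM. All 3 were high in replicates 1 and 3 and low in replicates 2 and 4, as were Col9a1, Otor, Epyc and Emid1 in the lists. Tusc5, a membrane protein of fat cells and sensory neurons, lay at 16.2, 10.9, 3.64 and 1.63 CPM, with its highest library in replicate 1 and its lowest in replicate 4 like Prph.

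Histone genes, whose messages mostly lack a poly(A) tail, took 0.0381, 0.0498, 0.0353 and 0.0543% of counts. Of 40 at 1 CPM or more, 16 were variable (40%, against 15.7% of all symbols). Replicate 4 was the highest library for 23 of the 40, against 21.6% of all symbols. Long non-coding RNAs, here without the sense intronic and sense overlapping kinds, took 2.604, 2.72, 2.696 and 2.85% of counts, an even share. Of 1477 at 1 CPM or more, 666 were variable (45.1%), against 15.7% of all symbols and 41.3% of those from 1 to 3 CPM. These shares were not matched for level, and all-or-none symbols are counted in them. No explanation was tested for these values.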
